A study of Mus musculus with 5 samples.

Results

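The growth hormone receptor, its kinase and transcription factors, and the hepatic genes they are known to control were followed in liver RNA of 5 C57BL/6N males. The 10 genes were chosen by name: Ghr, Jak2, Stat5a, Stat5b, Socs2, Cish, Igf1, Igfals, Bcl6 and Cux2. All 10 had at least 1 probe set that the platform annotation assigns to a single gene, out of 19938 such genes on the array. Where a gene had several, the one with the highest mean stands for it, which concerned Socs2 alone (11 probe sets for the 10 genes). Every mouse was wild type, aged 5 to 6 months, and had received streptozotocin, a compound toxic to the pancreatic beta cells that make insulin, at 65 mg/kg on 5 days at an age of 10 to 16 weeks. Starting 2 weeks later, they ate bezafibrate, a fibrate that activates peroxisome proliferator-activated receptors, for 8 weeks. The food contained 0.25% or 0.5% bezafibrate, and the labels do not say which a given mouse ate. All 5 mice form 1 group (n = 5, 1 array per mouse), and livers of mice given neither or only 1 of the compounds were not analysed here. The values therefore describe levels after both compounds and the differences between mice, and no effect of a treatment. The mice are numbered 1 to 5 as in the titles.

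Growth hormone is released by the pituitary and binds a receptor on hepatocytes that lacks enzyme activity of its own. The receptor activates the kinase JAK2, which phosphorylates STAT5A and STAT5B, and these enter the nucleus and switch on genes for the endocrine growth factor IGF1, its carrier proteins and the SOCS-family proteins that damp the signal. In rodents the hormone arrives in pulses in males and more evenly in females, and this pattern sets most of the sex differences in liver gene expression. In insulin-deficient rodents the liver is known to respond poorly to growth hormone.

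STAT5 dimers bind the palindrome TTCNNNGAA, and BCL6, a repressor, can bind overlapping sites. The start regions of Cish and Bcl6 are shown because these genes are a known STAT5-activated and a known STAT5-repressed gene, and both are among the 3 members that spread most between the mice. The windows run from 250 bases before to 50 bases after an annotated start (RefSeq sequence, build GRCm38.p6, 5′ to 3′ on the gene's strand), with every match of the palindrome in capitals. Cish lies at chr9:107296409-107296708 on the plus strand, and the Bcl6 windows at chr16:23988803-23989102 and chr16:23981234-23981533 on the minus strand.
Cish: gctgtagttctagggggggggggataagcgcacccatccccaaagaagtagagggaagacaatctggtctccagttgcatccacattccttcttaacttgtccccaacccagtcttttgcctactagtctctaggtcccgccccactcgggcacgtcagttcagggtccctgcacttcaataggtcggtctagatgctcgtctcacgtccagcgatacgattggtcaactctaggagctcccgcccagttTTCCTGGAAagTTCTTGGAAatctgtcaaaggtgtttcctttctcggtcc
Bcl6, first window: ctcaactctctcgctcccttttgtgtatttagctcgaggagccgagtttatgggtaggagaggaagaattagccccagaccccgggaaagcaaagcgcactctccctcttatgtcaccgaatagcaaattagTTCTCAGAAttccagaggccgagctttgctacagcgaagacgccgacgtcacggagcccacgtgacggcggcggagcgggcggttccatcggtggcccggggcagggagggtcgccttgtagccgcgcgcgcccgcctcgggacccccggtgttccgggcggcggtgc
Bcl6, second window: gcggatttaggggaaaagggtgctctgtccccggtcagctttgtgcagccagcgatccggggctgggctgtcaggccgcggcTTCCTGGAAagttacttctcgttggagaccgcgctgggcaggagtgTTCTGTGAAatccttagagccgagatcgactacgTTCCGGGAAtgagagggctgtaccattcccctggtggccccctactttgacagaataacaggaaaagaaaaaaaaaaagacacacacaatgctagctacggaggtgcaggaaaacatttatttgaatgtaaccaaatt
The Cish window held 2 matches, TTCCTGGAA and TTCTTGGAA, which begin at bases 1 and 12 after the start. The first Bcl6 window held 1 match, TTCTCAGAA, and the second held 3, TTCCTGGAA, TTCTGTGAA and TTCCGGGAA. Igfals had 1 match in each of 2 of its 3 windows, TTCTCAGAA and TTCCTAGAA. The palindrome reads alike on both strands, so 1 search covers both, and no match overlapped another. RefSeq start windows were found for 9 of the 10 genes (16 windows), and Socs2 had none. Of these 9, 3 genes held a match in any of their windows, against 9.55% of 27025 genes. A gene with more windows has more places for a match, and the number per gene was not matched. By window, 5 of the 16 held a match, against 8.3% of all 32851 windows, and 0.0335% of all windows held 3 or more. A match describes these letters only, and no binding was measured.

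Levels are log2 signals after RMA, a method that corrects background, aligns the arrays and merges each probe set's probes. A difference of 1 is a doubling of signal. The brightness of different probe sets depends on their probes, and levels are therefore set side by side only between mice, never between genes. The brightness floor of an array is the 95th percentile over its 1210 olfactory and vomeronasal receptor probe sets, since these genes belong to sensory neurons. The floor was 5.59 on the dimmest array and 6.07 on the brightest. All 10 genes exceeded it in all 5 mice, as did 60.0% of all genes, and 8 did so with the floor at the 99th percentile, Bcl6 then in 4 mice and Cux2 in 1. The variance between mice was compared with the variance that limma expects at the same level (upper-tail F test, Benjamini-Hochberg adjustment over 14586 tested probe sets). Markers of hepatocytes, Alb and Apoa1 among them, exceeded the floor in all mice (9 of 9 genes). The mice are biological replicates by their titles, and no technical replicate was measured, so the spread between mice includes technical spread.

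Of the 10 genes, 0 had a variance that passed the test after adjustment, against 0.285% of the 13336 tested genes. At an unadjusted limma p under 0.05 there were 3, Socs2, Bcl6 and Cish, against 6.38% of tested genes. The median SD of the 10 genes was 0.17, against 0.12 over all tested genes. The receptor, kinase and STAT genes each spanned less than a 1.4-fold range. Among the target genes, Igf1 spanned 1.22-fold and Igfals 1.42-fold, while Socs2, Cish and Bcl6 each spanned more than a doubling. Mouse 5 had the lowest value for 5 of the 10 genes (Ghr, Jak2, Stat5b, Socs2 and Igfals), and it was lowest for 21.6% of tested genes. A lower signal in whole liver can come from fewer cells of a type or from less RNA per cell, which these data cannot tell apart.

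**Figure D1:**
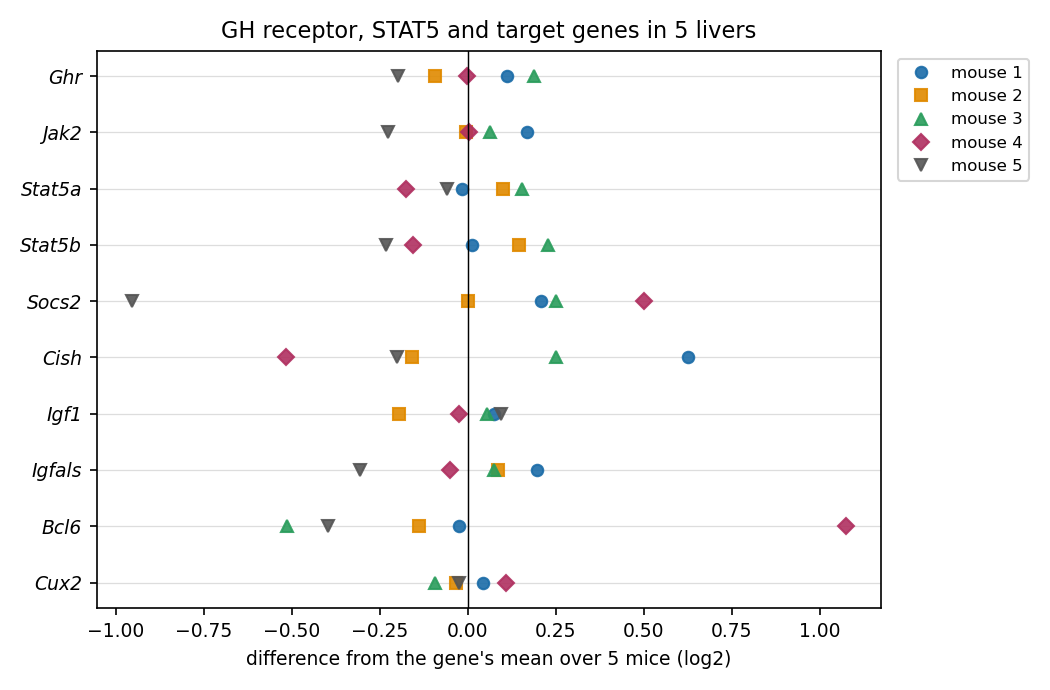
Each row is a gene and each symbol a mouse; the horizontal axis is the log2 difference of that mouse from the gene's mean over the 5 mice. Socs2 is far to the left in mouse 5 (8.84, mean 9.79) and Bcl6 far to the right in mouse 4 (8.19, mean 7.12), while Igf1 and Cux2 stay close to 0.

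Ghr encodes the receptor itself (probe set 10427402). Its level was 11.41, 11.21, 11.49, 11.30 and 11.10 in mice 1 to 5, a mean of 11.30 ± 0.15 (SD, n = 5). Mouse 3 was highest and mouse 5 lowest, a 1.31-fold span. The expected SD at this level was 0.09, and the variance did not pass (limma adjusted p = 0.969).

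Jak2, the receptor-bound tyrosine kinase gene (probe set 10462363), had 7.54, 7.37, 7.44, 7.38 and 7.15 in mice 1 to 5. Mice 1 to 4 lay within 0.18 of each other and mouse 5 was lowest, with an SD of 0.14 over all mice and of 0.08 without mouse 5 (limma adjusted p = 0.992 and 0.997).

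Stat5a and Stat5b encode the transcription factors and are neighbours in RefSeq's gene table of GRCm38.p6. STAT5B is the form that carries most of the male growth hormone response in mouse liver. Stat5a (probe set 10381172) was 7.92, 8.03, 8.09, 7.76 and 7.87 in mice 1 to 5, and Stat5b (probe set 10391286) was 8.62, 8.76, 8.84, 8.46 and 8.38. Both genes were highest in mouse 3, then mouse 2, then mouse 1, and mice 4 and 5 were below. The SDs were 0.13 and 0.19, and neither variance passed (limma adjusted p = 0.992 for Stat5a and 0.983 for Stat5b). The 2 genes are close paralogs, and whether the probes of one also bind transcripts of the other was not examined. With each array centred on its median, Stat5a was highest in mouse 2.

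Socs2 encodes a SOCS-family protein that targets the growth hormone receptor for degradation, and mice lacking it grow larger than normal. The brighter of its 2 probe sets (10394674) gave 10.00, 9.79, 10.04, 10.29 and 8.84 in mice 1 to 5, a mean of 9.79 ± 0.56 (SD, n = 5). Mouse 5 was 1.94-fold below the next lowest mouse, and the other 4 mice lay within 0.5 of each other. The second probe set (10372069) gave 7.96, 7.81, 7.97, 8.05 and 7.16, with the same order of the mice. The variance of the brighter probe set was 27.5 times that expected at its level, and it did not pass after adjustment (limma adjusted p = 0.0814). It passed with each array centred on its median (limma adjusted p = 0.0206). Without mouse 5 the SD was 0.21 instead of 0.56 (limma adjusted p = 0.803), so 1 mouse sets most of this spread.

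Cish encodes CIS, a SOCS-family protein whose gene is among the fastest to respond to STAT5. Its level (probe set 10588577) was 8.14, 7.36, 7.77, 7.0 and 7.32 in mice 1 to 5, a mean of 7.52 ± 0.44 (SD, n = 5). Mouse 1 was highest and mouse 4 lowest, a 2.21-fold span, and no single mouse stood apart: the SD was 0.32 to 0.50 with any 1 mouse left out. The variance was 11.9 times that expected, with a limma adjusted p of 0.268. In mouse 1 the 11 Kupffer cell and macrophage markers were high too (10 of 11 highest, mean deviation 0.36, between -0.22 and 0.10 in the other mice), and so were 7 of 9 stellate cell markers and 6 of 8 endothelial markers. The 4 tested skeletal muscle markers were highest in mouse 1 as well (mean deviation 0.48, between -0.20 and -0.04 in the other mice). So were the 2 of 9 listed erythroid markers with a probe set of their own (0.45, but also 0.32 in mouse 3). Of all tested genes, 23.9% were highest in mouse 1. The part of any of these cells in the Cish value was not tested.

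Bcl6 encodes a zinc finger repressor that is male-biased in mouse liver and is itself repressed by STAT5. It was 7.09, 6.98, 6.60, 8.19 and 6.72 in mice 1 to 5 (probe set 10438738), a mean of 7.12 ± 0.63 (SD, n = 5). Mouse 4 stood 2.14-fold above the next mouse, and the span over all mice was 3.00-fold. The variance was 23.4 times that expected, and it did not pass after adjustment (limma adjusted p = 0.0987). It passed with arrays centred on their medians (limma adjusted p = 0.0238) and without mouse 5 (0.0443), and without mouse 4 the SD was 0.23 instead of 0.63 (limma adjusted p = 0.988). Mouse 4 also had the brightest array background, with 76.0% of the receptor probe sets highest in it and a median deviation of 0.25 there, against a Bcl6 deviation of 1.07. Among tested genes, 8.47% were highest in mouse 4.

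Set beside each other, the targets did not share 1 order of the mice. Mouse 4, with the highest Bcl6, had the lowest Cish (7.0) and the highest Socs2 (10.29). Mouse 5, with the lowest Socs2, was in the lower part of the range for Cish (7.32) and Bcl6 (6.72). Cish and Bcl6 deviated in opposite directions in mice 3 and 4, with 0.25 and -0.51 in mouse 3 and with -0.52 and 1.07 in mouse 4, and in the same direction in mice 2 and 5. In mouse 1 Cish deviated by 0.63 and Bcl6 by -0.02. With 5 mice no correlation was computed.

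**Figure D2:**
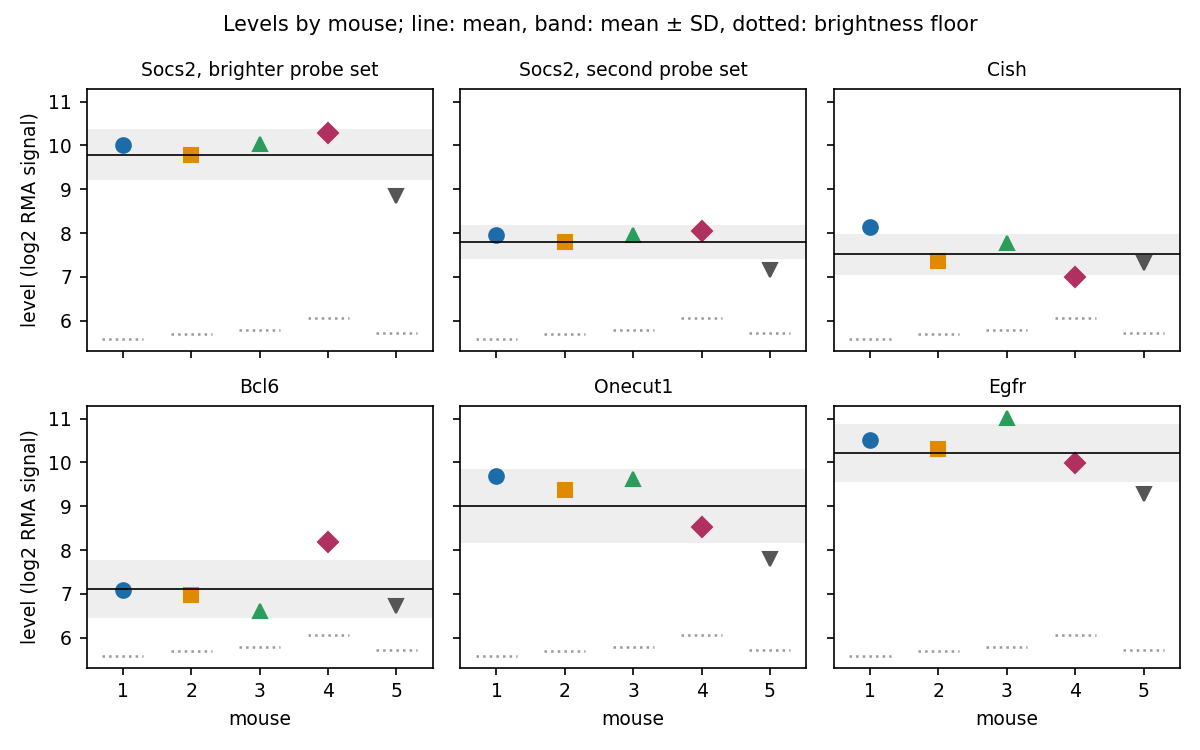
Level (log2 RMA signal) by mouse for both Socs2 probe sets, Cish, Bcl6, Onecut1 and Egfr; the line is the mean, the band the mean ± SD over 5 mice, and dotted marks give each array's brightness floor. Both Socs2 probe sets are lowest in mouse 5 (8.84 and 7.16), Bcl6 is highest in mouse 4 (8.19), and Onecut1 and Egfr are lowest in mouse 5 (7.80 and 9.29).

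Cux2 encodes a female-biased homeodomain factor that represses male-biased genes in mouse liver. In these male livers it was 6.65, 6.58, 6.52, 6.72 and 6.59 in mice 1 to 5 (probe set 10533403), a mean of 6.61 ± 0.08 (SD, n = 5) that is near the brightness floor. Its SD was below the 0.13 expected at its level, and the limma adjusted p was 0.992.

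**Figure D3:**
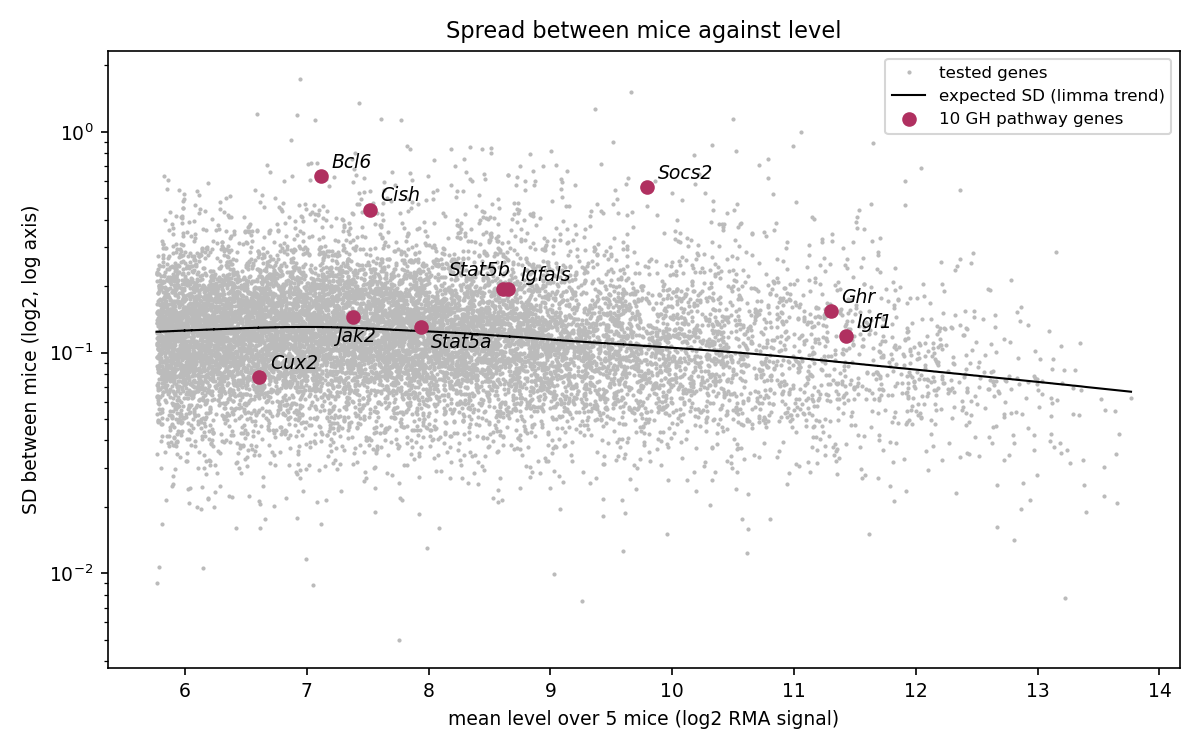
SD between mice (log2, on a log axis) against the mean level for every tested gene (grey), with the SD that limma's trend expects (line) and the 10 genes in red. Bcl6 (0.63), Socs2 (0.56) and Cish (0.44) lie far above the line, Ghr (0.15) and Igf1 (0.12) slightly above it and Cux2 (0.08) below it.

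By the size of the difference between their profiles over the 5 mice, the genes most like Socs2 were Nrp1, Afmid and Apom. Nrp1, a neuropilin gene, had 9.56, 9.61, 9.78, 9.52 and 8.68 in mice 1 to 5, with a root mean square difference of 0.23 from the Socs2 profile, against a median of 0.52 over all tested genes. Afmid differed by 0.26, and so did Apom, which encodes an apolipoprotein. All 3 were lowest in mouse 5, which follows largely from choosing them by closeness to the Socs2 profile. The genes most like Bcl6 were Dcpp1 (0.25), Sp140 (0.32) and the sialyltransferase gene St3gal6 (0.33), against a median of 0.60. St3gal6 was 9.72 in mouse 4, and the other mice had 8.56 to 9.28, whereas Dcpp1 and Sp140 had means of 6.17 and 6.11, close to the floor.

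Igf1 and Igfals are the endocrine output of the pathway, the hormone and the acid-labile subunit that holds it in a large complex in blood. Igf1 was 11.50, 11.23, 11.49, 11.40 and 11.52 in mice 1 to 5 (probe set 10365559), a mean of 11.43 ± 0.12 (SD, n = 5) and a 1.22-fold span. Mouse 2 was lowest, and without it the SD was 0.05. The value was within 0.12 in mice 1, 3, 4 and 5, while Socs2 differed by 1.45 among the same mice. Igfals was 8.85, 8.74, 8.73, 8.60 and 8.34 in mice 1 to 5 (probe set 10442625), with an SD of 0.19, and of 0.10 without mouse 5. Neither variance passed (limma adjusted p = 0.992 and 0.985).

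Other genes of the insulin-like growth factor system were read from a list of 16, of which 11 were tested and 0 passed, against 0.285% of tested genes, while 4 had an unadjusted limma p under 0.05, against 6.38%. Igfbp3, the main carrier of circulating IGF1 and a gene known to respond to growth hormone, was 8.74, 8.02, 8.29, 7.78 and 7.33 in mice 1 to 5 (SD 0.53, 2.66-fold, adjusted p = 0.15 by limma). It was highest in mouse 1 and lowest in mouse 5, as Igfals was. In liver Igfbp3 is known to be made outside the hepatocytes, and the macrophage, stellate, endothelial, muscle and erythroid markers given above were mostly highest in mouse 1; their part was not tested. Igfbp1, a carrier gene that insulin represses, was lowest in mouse 1 and highest in mouse 5, with 9.61, 10.25, 10.50, 10.53 and 10.77 (SD 0.44, limma adjusted p = 0.144). Igf2, a growth factor gene that is silenced in adult rodent liver, was 7.54 in mouse 5, and the other mice had 6.17 to 6.42 (SD 0.55, limma adjusted p = 0.153), and Igf2r, which clears IGF2, was also highest in mouse 5 at 9.48 and 8.64 to 9.09 elsewhere. Igfbp2 (11.15 ± 0.08), Insr, the insulin receptor gene (9.92 ± 0.04), and Igf1r (6.39 ± 0.08, SD, n = 5) had small spans of 1.16-fold, 1.09-fold and 1.16-fold.

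**Figure D4:**
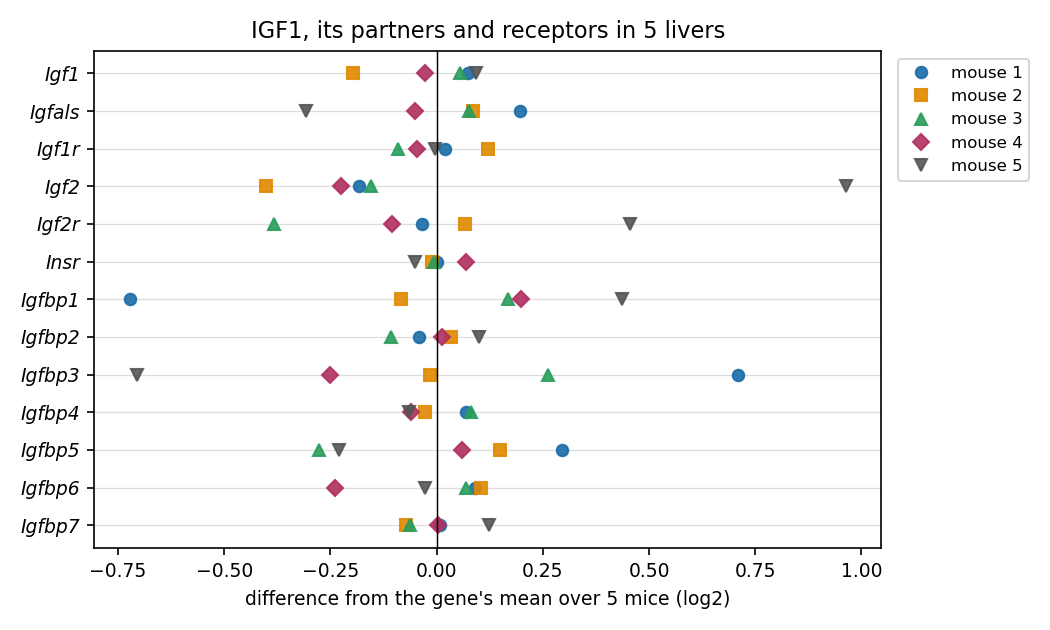
Log2 difference of each mouse from the gene's mean for Igf1, Igfals and the 11 tested genes of the IGF list; symbols are mice. Igfbp3 runs from 8.74 in mouse 1 to 7.33 in mouse 5 and Igfbp1 from 10.77 in mouse 5 to 9.61 in mouse 1, while Insr stays between 9.87 and 9.99.

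Genes that act on the receptor, on JAK2 or beside STAT5 differed between the mice about as much as other genes. Of 29 listed, 27 had a probe set of their own and all 27 were tested, with 0 that passed, against 0.285% of tested genes, and 1 (Irs2) at an unadjusted limma p under 0.05, against 6.38%. Their median SD was 0.13, against 0.12 over all tested genes. Socs3, which cytokine signals induce, was 7.50, 7.50, 7.40, 7.07 and 7.50 in mice 1 to 5 (SD 0.19, limma adjusted p = 0.992), low in mouse 4 only. Socs1 had 6.95 ± 0.13 and Stat3, the main IL-6 signal transducer, 9.44 ± 0.07 (SD, n = 5). The widest were Irs2 (SD 0.26, 7.64 in mouse 1 and 8.16 to 8.28 in the others), Irs1 (0.23, highest in mouse 5 at 8.51) and Stat2 (0.21). In mouse 4, 16 of the 27 were lowest, and so were 36.5% of tested genes.

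Among 8 further genes described as targets of STAT5 or growth hormone in liver or other tissues, 2 passed the variance test and 6 did not, against 0.285% of tested genes. At an unadjusted limma p under 0.05 there were 6 of 8, against 6.38% of tested genes. This list, like the other gene lists here, was written with results of these data known, so its counts are descriptive only. Onecut1 encodes HNF6, a hepatocyte factor induced by growth hormone, and was 9.69, 9.37, 9.62, 8.52 and 7.80 in mice 1 to 5 (SD 0.82, 3.70-fold, limma adjusted p = 0.0296). Egfr, the epidermal growth factor receptor gene, which growth hormone is known to sustain in mouse liver, was 10.50, 10.31, 11.02, 9.98 and 9.29 (SD 0.64, 3.31-fold, limma adjusted p = 0.0474). Both were lowest in mouse 5 and next lowest in mouse 4, so they matched Socs2 in mouse 5 but not in mouse 4. Onecut1 did not pass without mouse 2 (limma adjusted p = 0.0549), mouse 3 (0.0545) or mouse 4 (0.136), with SDs of 0.54 to 0.91 over the 5 omissions, the smallest without mouse 5. Egfr passed without mouse 1 (0.0268), and its limma adjusted p was 0.0719, 0.155, 0.172 and 0.0616 without mice 2 to 5. Egfr did not pass after repeated quantile normalization (limma adjusted p = 0.0781) and did with arrays centred on their medians (0.00655). Over 12 alternative settings, the omissions included, Onecut1 passed in 5 and Egfr in 2. Myc was 8.81 in mouse 5, and the other mice had 7.14 to 7.91 (SD 0.61, limma adjusted p = 0.0987), and the cyclin gene Ccnd1 was also highest in mouse 5, at 10.97, and lowest in mouse 3, at 9.80 (SD 0.44, limma adjusted p = 0.137).

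Genes whose sex bias in mouse liver depends on growth hormone had opposite extremes in mouse 3 for the male-biased and the female-biased list. Of 32 listed male-biased genes 22 had a probe set of their own and 16 were tested, and of 29 listed female-biased genes 20 had one and 14 were tested. Of the tested male-biased genes, 10 of 16 were highest in mouse 3, and 22.9% of all tested genes were. Of the tested female-biased genes, 10 of 14 were lowest in mouse 3, and 18.9% of all tested genes were. Acot3 and Acot4 were among these 10, with deviations of -0.69 and -0.57 in mouse 3. Whether bezafibrate acts on genes of either list was not tested, and the dose of each mouse is not known. The mean deviation in mouse 3 was 0.38 for the male-biased and -0.49 for the female-biased genes. The corresponding means were -0.19 and 0.21 in mouse 4 and -0.30 and 0.23 in mouse 5. Of the 16 male-biased genes, 4 were lowest in mouse 4 and 9 in mouse 5, against 36.5% and 21.6% of all tested genes. Of the 14 female-biased genes, 4 were highest in mouse 4 and 4 in mouse 5, against 8.47% and 19.2%. Among the 10 pathway genes, mouse 3 was highest for Ghr, Stat5a and Stat5b, mouse 1 for Jak2, Cish and Igfals, mouse 4 for Socs2, Bcl6 and Cux2, and mouse 5 for Igf1. With arrays centred on their medians, Cux2 and Igf1 were highest in mouse 1 and Stat5a in mouse 2. Mouse 3 was lowest for Bcl6 and for Cux2, whose SD was under that expected. The 9 tested hepatocyte markers had a mean deviation of 0.0014 in mouse 3 and of -0.05 in mouse 5. These means covered genes that went both ways. Fga and Hnf4a deviated by 0.34 and -0.23 in mouse 3 and by -0.35 and 0.10 in mouse 5. These lists were written with results of these data known, and the genes of a list are not independent of each other.

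Mup3 and Elovl3 were the 2 male-biased genes that passed the variance test, with 14 that did not, against 0.285% of tested genes. At an unadjusted limma p under 0.05 there were 9 of 16, against 6.38%. Mup3, of the major urinary protein family, was 11.85 in mouse 3, 10.79 in mouse 1 and 9.91 to 10.04 in the other 3 (SD 0.82, 3.82-fold, limma adjusted p = 0.015). Members of this family are near-identical copies, so the signal may include others. Elovl3, a fatty acid elongase gene, was 10.99, 11.36, 11.42, 10.57 and 9.58 in mice 1 to 5 (SD 0.75, limma adjusted p = 0.0202). Mup3 did not pass without mouse 3 (SD 0.40, limma adjusted p = 0.301) or mouse 4 (0.136), and Elovl3 did not pass without mouse 2 (0.0549), mouse 4 (0.136) or mouse 5 (SD 0.39, adjusted p = 0.0676). Cyp7b1, an oxysterol hydroxylase gene, was 10.32 in mouse 3 and 8.84 in mouse 5 (SD 0.54, limma adjusted p = 0.0917), and the complement gene C6 was 8.94 in mouse 3 and 7.75 in mouse 2 (SD 0.51, limma adjusted p = 0.168). Cyp2d9, also male-biased, held at 11.42 ± 0.10 (SD, n = 5).

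Of the 22 male-biased genes with a probe set of their own, 4 did not exceed the brightness floor in any of these male livers. In all 5 mice, 16 of the 22 exceeded it, and 60.0% of all genes did. Hsd3b5, a hydroxysteroid dehydrogenase gene of male mouse liver, was 4.81, 5.04, 5.21, 4.80 and 4.80 in mice 1 to 5. Slco1a1, an organic anion transporter gene, lay between 4.91 and 5.65, Moxd1 between 5.15 and 5.48 and Mup5 between 5.30 and 5.73; these 3 were singled out after their values were seen. The count of 16 was the same with the floor at the 90th, 95th or 99th percentile. These 16 are the tested genes, which were selected by a mean above a similar floor, so their place above it was largely fixed in advance. How strongly these probe sets respond was not tested, and without untreated livers no change can be read from their levels.

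Cyp2b13, a cytochrome P450 gene that is normally higher in females, was the 1 female-biased gene that passed, with 13 that did not, against 0.285% of tested genes, and 10 of 14 had an unadjusted limma p under 0.05, against 6.38%. It was 8.22, 8.72, 6.99, 9.30 and 8.44 in mice 1 to 5 (SD 0.86, 4.98-fold, limma adjusted p = 0.0296), lowest in mouse 3. Without mouse 3 its SD was 0.47 (limma adjusted p = 0.305), and it did not pass without mouse 2 (0.0550) or mouse 4 (0.185) either. With no filter on level it did not pass (limma adjusted p = 0.0572). Prom1, a membrane glycoprotein gene, was also lowest in mouse 3, at 5.59 and below that array's floor, while the other mice had 6.55 to 7.52 (SD 0.71, limma adjusted p = 0.076). Nipal1 was 8.41 in mouse 4 and 7.25 in mice 2 and 3 (SD 0.49, adjusted p = 0.205 by limma). Slc22a27, a transporter gene, was 6.57 in mouse 1 and 6.44 in mouse 5 and below the floor in the others. Cyp2b9, a female-biased gene, was bright in every mouse, with 12.94, 13.09, 12.90, 13.01 and 13.04 (mean 12.99 ± 0.08, SD, n = 5), a 1.14-fold span. It is also known as a gene that nuclear receptors other than the growth hormone pathway induce. A1bg, female-biased, did not exceed the floor in any mouse (4.90 to 5.68), nor did Cyp3a16, Sult3a1 and Ntrk2.

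**Figure D5:**
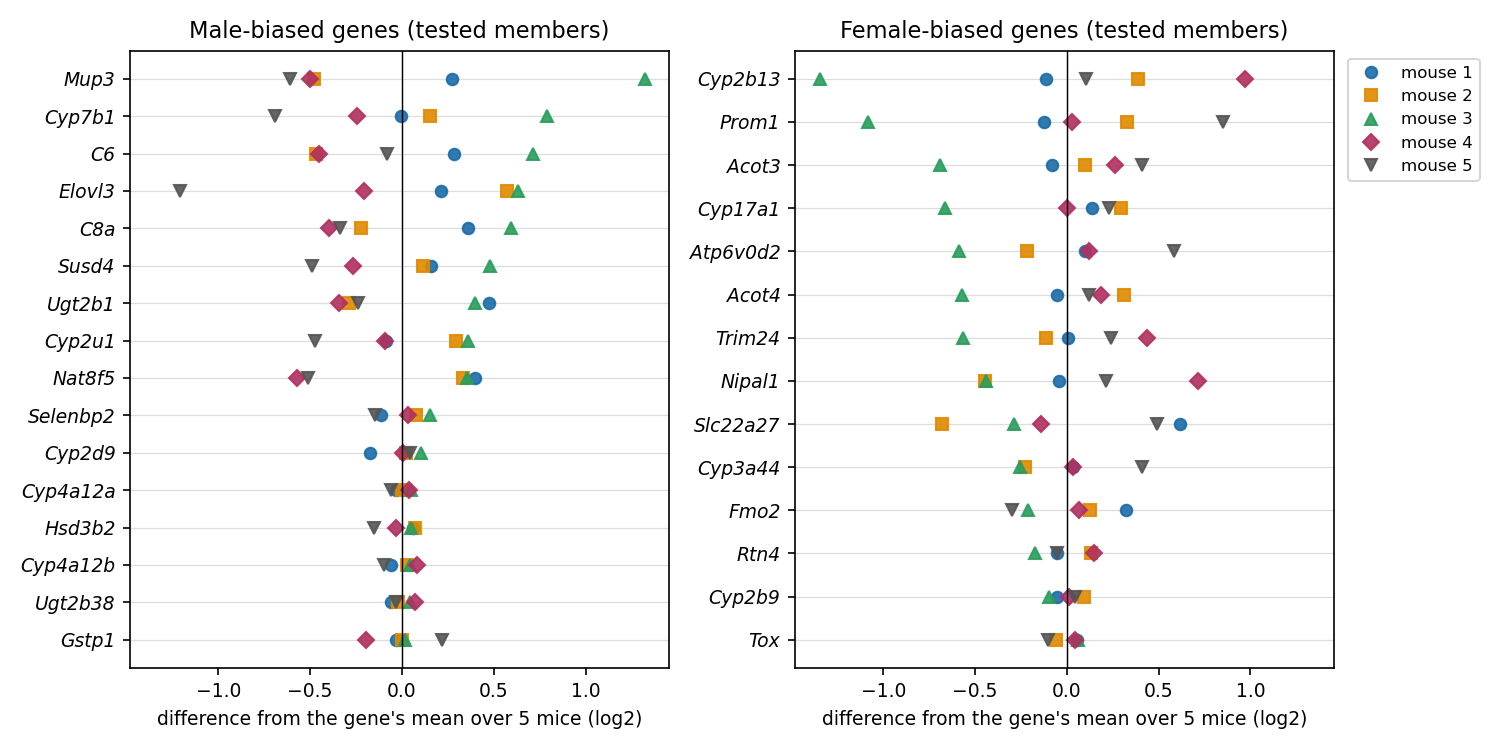
Log2 difference of each mouse from the gene's mean for the 16 tested male-biased genes and the 14 tested female-biased genes, ordered by mouse 3; symbols are mice. Mouse 3 lies to the right for 10 male-biased genes (Mup3 11.85) and to the left for 10 female-biased genes (Cyp2b13 6.99), and mouse 5 is lowest for 9 male-biased genes.

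Acute-phase genes were read beside the pathway because inflammation is known to blunt hepatic growth hormone signalling. Of 19 listed, 18 were tested and 4 passed (Saa2, Orm2, Orm3 and Lcn2, limma adjusted p = 0.0035 to 0.0339), against 0.285% of tested genes, and 11 of 18 had an unadjusted limma p under 0.05, against 6.38%. The mean deviation of the list was 0.37, -0.06, -0.14, -0.20 and 0.03 in mice 1 to 5, and the median deviation 0.13, -0.08, 0.01, -0.09 and -0.01. Mouse 1, highest by both, also had the highest Cish. Its mean included deviations of 2.25 for Saa2 and 1.57 for Lcn2. Mice 1 and 3 were each highest for 6 of the 18 genes, against 23.9% and 22.9% of all tested genes. In mouse 5, with the lowest Socs2, the mean near 0 covered genes that went far both ways. Lcn2, the lipocalin 2 gene, was 10.93, 8.75, 8.12, 8.52 and 10.52 in mice 1 to 5, high in mice 1 and 5 (SD 1.27). Saa2 was 9.67, 7.30, 7.42, 6.37 and 6.36, lowest in mouse 5, where 7 of the 18 genes were lowest. Orm2 and Orm3, orosomucoid genes, were lowest in mouse 3 at 9.37 and 7.17, and 11.02 to 11.90 and 8.52 to 9.20 in the others. Without mouse 3 their SDs were 0.36 and 0.33 instead of 0.99 and 0.80 (limma adjusted p = 0.299 and 0.604). Saa2, a serum amyloid gene, did not pass without mouse 1 (SD 0.58, limma adjusted p = 0.118), and none of the 4 passed without mouse 4 (limma adjusted p = 0.0881 to 0.136).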

How the data were processed

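Total RNA of 5 livers was measured on Affymetrix whole-transcript arrays. The deposited values are log2 signals, 1 per probe set and mouse, made by the authors with RMA and Affymetrix Expression Console 1.2 per the submitters' processing notes; the order and settings are not given in the sources used here. They were used as deposited. The table held 35556 probe sets, of which the platform annotation gives 21789 exactly 1 symbol. All 10 genes matched RefSeq's gene table by gene ID.

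With limma 3.58.1 in R 4.3.3, a mean per probe set was fitted (robust trended prior, statmod 1.5.0; 4 residual and 6.21 prior degrees of freedom) over the 14586 probe sets with 1 symbol and a mean above 5.77, the 95th percentile of the receptor probe sets' means. The threshold was an adjusted p of 0.05. The test was checked on simulated data. Tables and figures were made with Python 3.11.15.

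The members, the 6 pathway lists, the 10 cell type lists, the tests and the rule for named genes were chosen with earlier results of these data known. The rule named the 10 members, 21 fixed genes where measured, members that passed, and the 4 with the largest SD of each pathway list. Alternatives were other normalizations, filters, variance fits and probe sets, and leaving out each mouse.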

Additional observations from a re-analysis of the deposited data

Results flagged for a closer look

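In 4 of 44 profiles screened, 1 mouse lay apart from the other 4 by Dixon's test (gap over range above 0.71). Chance gives about 1 in 20 for profiles not chosen by their values. Some of the 44 were named for a large SD between the same mice, so that rate is not a baseline for them. The second Socs2 probe set had a gap of 0.724 of its range, with 7.16 in mouse 5 and 7.81 to 8.05 in the others. The brighter Socs2 probe set (0.656) and Bcl6 (0.692) stayed under the limit. Igf2 had 0.819, with mouse 5 high at 7.54. Socs3 had 0.761, with mouse 4 low at 7.07 and 7.40 to 7.50 in the others. Irs2 had 0.821, with mouse 1 low at 7.64.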

How the results depend on the processing

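Under 12 processing alternatives (13 for Socs2, with the mean of its probe sets), the spread of the 10 genes kept its side of the threshold except for Socs2 and Bcl6. With arrays centred on their medians Socs2 (SD 0.55) and Bcl6 (SD 0.61) passed, and Bcl6 also passed without mouse 5, with SDs of 0.23 to 0.73 as each mouse was left out. The number of probe sets that passed was 52 (925 at an unadjusted p under 0.05). It was 142 with median centring, 29 with the floor required on all arrays, 18 without the robust step, 24 without the trend, 0 by limma with all probe sets included (1385 unadjusted), and 0 to 69 as each mouse was left out, 0 by limma without mouse 4 (864 unadjusted).

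Of the IGF genes 0 passed (4 unadjusted), and 1 with median centring. Of the further STAT5 targets 2 passed, with 1 after repeated quantile normalization, 4 with median centring, 0 with no filter on level, 1 with the floor on all arrays, and 0 without the robust step, without the trend or with all probe sets; with each mouse left out it was 0 to 2. Of the male-biased genes 2 passed, with 4 under median centring, 0 without the robust step, without the trend or with all probe sets, and 0 to 2 with each mouse left out. Of the female-biased genes 1 passed, with 3 under median centring, 1 with no filter on level (Sult1e1, chosen after its value was seen, and not Cyp2b13), 0 without the robust step, without the trend or with all probe sets, and 0 to 2 with each mouse left out. Of the acute-phase genes 4 passed, with 3 after repeated quantile normalization and 3 with no filter on level, both without Orm3. The count was 5 with median centring, 1 without the robust step, 2 without the trend, 0 with all probe sets, and 0 to 5 with each mouse left out. For all of these the cause was not tested. The male-biased genes highest in mouse 3 were 10, 11 after quantile normalization and 8 with median centring, and the female-biased genes lowest there were 10, 10 and 11; these checks were chosen after seeing the data.

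No paired analysis was possible because all 5 mice form 1 group. Signal over background limits Cux2 and Bcl6 most, and 5 arrays limit the precision of every SD.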
